A study of Homo sapiens with 2 samples.

Results

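The genes described here are the adhesion genes *CEACAM5* and *CEACAM6* and 4 genes of the absorptive colon epithelium, *KRT20*, *ANKS4B*, *DPP4* and *NOX1*. They are 6 of 14812 genes with a named probe set, and all 6 were found. A probe set is a group of array probes that reads 1 transcript, and each of these genes had 1. The 6 genes were selected on the difference between the same 2 arrays that is described below, so their own differences are a description and not a finding. RNA came from HT29, an established human colon cancer cell line, transfected with a control siRNA (siControl, 1 array) or with an siRNA against *REG4* (siREG4, 1 array), the gene of a secreted lectin. One treatment label gives the target of the siREG4 sample as GATA6, while its title gives REG4, by which it was grouped. *REG4* was not analysed here, as no probe set carried its name, so the knockdown could not be checked on the arrays, and *GATA6* was at 0.07 (siREG4 minus siControl, log2).

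Absorptive colonocytes line the surface of the colon and carry a brush border of microvilli. Carcinoembryonic antigen (CEACAM5) and CEACAM6 are glycoproteins of the immunoglobulin superfamily, held in the apical membrane by a lipid (GPI) anchor, and both are often abundant in colorectal cancer. Keratin 20 fills the cytoplasm of cells near the mucosal surface. ANKS4B is a scaffold of the complex that links the tips of microvilli, DPP4 (CD26) is a brush border peptidase, and NOX1 is an NADPH oxidase that makes superoxide in colonocytes.

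The sequences just before the gene starts are shown for the CEACAM pair that was higher in the siREG4 array, for their neighbour *CEACAM7*, and for *KRT20* and *NOX1*. Each is the 250 bases before the RefSeq gene start (GRCh38.p14), written 5′ to 3′ on the strand of the gene. Capitals mark matches, on either strand, to a GATA motif (AGATAA or AGATAG, or else TGATAA or TGATAG), an E-box (CACGTG), a CDX motif (TTTATG or TTTATT) or a TATA element (TATAAA).
CEACAM5 (chr19:41708376-41708625, plus strand): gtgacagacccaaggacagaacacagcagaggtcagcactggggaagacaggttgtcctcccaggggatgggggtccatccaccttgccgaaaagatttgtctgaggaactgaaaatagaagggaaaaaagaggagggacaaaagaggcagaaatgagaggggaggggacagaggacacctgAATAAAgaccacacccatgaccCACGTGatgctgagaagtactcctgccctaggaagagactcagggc
CEACAM6 (chr19:41755280-41755529, plus strand): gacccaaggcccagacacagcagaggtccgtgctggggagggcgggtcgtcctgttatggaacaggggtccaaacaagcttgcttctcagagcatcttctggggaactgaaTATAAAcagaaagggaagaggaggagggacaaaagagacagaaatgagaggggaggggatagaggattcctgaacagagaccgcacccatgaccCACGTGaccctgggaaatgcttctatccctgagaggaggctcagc
CEACAM7 (chr19:41688271-41688520, minus strand): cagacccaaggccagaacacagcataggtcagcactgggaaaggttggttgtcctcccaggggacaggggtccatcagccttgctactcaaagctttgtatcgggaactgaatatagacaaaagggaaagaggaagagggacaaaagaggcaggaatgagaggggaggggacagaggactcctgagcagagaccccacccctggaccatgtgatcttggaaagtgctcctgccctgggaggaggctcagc
KRT20 (chr17:40885243-40885492, minus strand): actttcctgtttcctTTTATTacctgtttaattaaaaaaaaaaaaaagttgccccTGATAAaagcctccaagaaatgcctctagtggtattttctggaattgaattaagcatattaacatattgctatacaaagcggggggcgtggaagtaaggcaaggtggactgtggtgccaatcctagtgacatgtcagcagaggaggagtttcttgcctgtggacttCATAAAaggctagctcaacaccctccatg
NOX1 (chrX:100874360-100874609, minus strand): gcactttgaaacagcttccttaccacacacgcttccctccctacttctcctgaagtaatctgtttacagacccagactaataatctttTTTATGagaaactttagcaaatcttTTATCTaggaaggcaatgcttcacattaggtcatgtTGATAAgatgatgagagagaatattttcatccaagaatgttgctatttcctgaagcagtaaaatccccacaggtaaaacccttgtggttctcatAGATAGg

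Of the 6 genes, 3 were higher and 3 were lower in the siREG4 array. The deposited log2 values were centred per probe set, so the values of the arrays are equal and opposite and hold no expression level. A difference is the siREG4 value minus the siControl value, and with 1 array per group none has a replicate check or a p-value. It was set against a 1.4-fold threshold, which is a difference of 0.49. For scale, 85 genes of the keratin-associated protein (*KRTAP*) group, nearly all of them hair genes, lay between -0.22 and 0.30 (SD across genes 0.09), with 0 past 1.4-fold. Over all named genes the SD was 0.19, and how far the *KRTAP* spread stands for that of expressed genes was not tested.

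*CEACAM5* (probe set 16862548) was at -0.79 in siControl and 0.79 in siREG4. This is a difference of 1.58, or 3.0-fold higher, and ranked 3 from the highest among all named genes, between *SOX4* (1.63) and *FBXO32* (1.53). *CEACAM6* (16862563) was at -0.43 and 0.43, 1.82-fold higher (0.87), and ranked 42. The differences of these paralogs lay 0.72 apart. *KRT20* (16844497) was at -0.27 and 0.27, 1.46-fold higher (0.54), at rank 167.

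*NOX1* (17112656) was at 0.65 in siControl and -0.65 in siREG4. It was 2.47-fold lower (-1.30) and ranked 2 from the lowest, after *GINS1* (-1.39). *ANKS4B* (16816670) was at 0.34 and -0.34, 1.60-fold lower (-0.68), at rank 71 from the lowest. *DPP4* (16904278) was at 0.17 and -0.17, 1.26-fold lower (-0.33), and did not pass 1.4-fold.

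Past 1.4-fold, 3 of the 6 genes were higher and 2 were lower, where 1.51% of all named genes were higher and 1.67% were lower. Past 2-fold, *CEACAM5* was higher and *NOX1* lower, against 0.176% and 0.0878% of all genes. Since this contrast chose the genes, nothing is read from these shares.

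**Figure D1:**
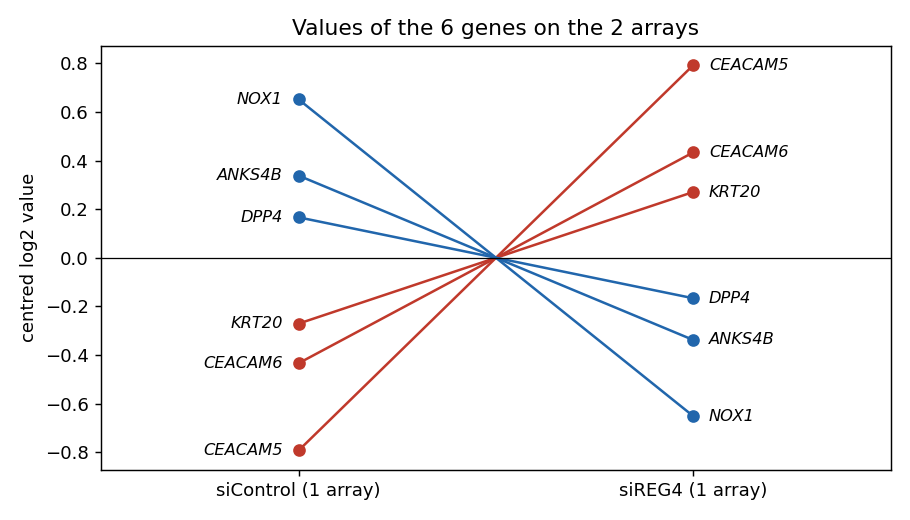
Centred log2 values of the 6 genes (y axis) on the siControl and siREG4 arrays (x axis, 1 array each), with a line per gene. *CEACAM5*, *CEACAM6* and *KRT20* (red) were higher in siREG4 and *NOX1*, *ANKS4B* and *DPP4* (blue) were lower, and the mirror symmetry comes from the centring of each probe set.

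Within the CEACAM family the difference was uneven. Of 24 listed genes and pseudogenes 11 were measured. Apart from *CEACAM5* and *CEACAM6*, which were chosen on this difference, the other 9 lay between -0.20 and 0.13 with a median of 0.07. Of these 9, 0 passed 1.4-fold in either direction. Among all named genes 1.51% were higher and 1.67% lower, so nothing is read from this count. The lowest of the 9 was *CEACAM1* (-0.20), a membrane-spanning member that is also made by colonocytes. *CEACAM7*, a GPI-anchored member of the normal colon surface, was at 0.08. The members best known from granulocytes were *CEACAM4* (-0.03), *CEACAM8* (0.02) and *CEACAM3* (0.11). *CEACAM21* was at 0.01, *CEACAM16*, a protein of the inner ear, at 0.07, *CEACAM19* at 0.10 and *CEACAM20* at 0.13. The pregnancy-specific glycoprotein (*PSG*) genes, the other branch of the family, ran from -0.06 to 0.08 over 11 measured entries (median 0.02), 1 of them the antisense RNA *PSG8-AS1* (0.04). Probe sets of such close paralogs can share signal, and how far those of *CEACAM5* and *CEACAM6* do was not tested.

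**Figure D2:**
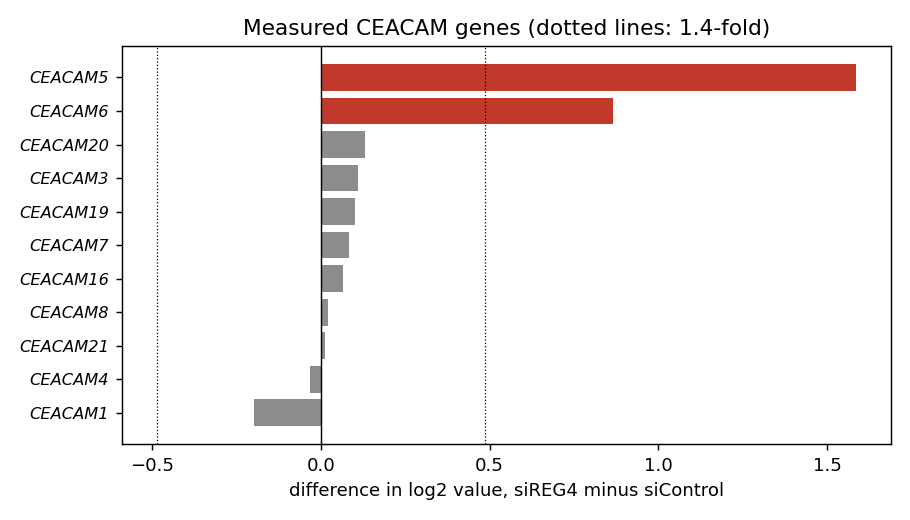
Difference in log2 value, siREG4 minus siControl (x axis), of the 11 measured CEACAM genes, with 1 bar per gene and dotted lines at 1.4-fold. *CEACAM5* (1.58) and *CEACAM6* (0.87) lie past the line and the other 9 between -0.20 and 0.13.

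*CEACAM5* and *CEACAM6* are adjacent on chromosome 19, and the genes around them were compared in RefSeq order. *CEACAM7* (0.08) precedes the pair and *CEACAM3* (0.11) follows it. From *CEACAM21* to *CEACAM8* the stretch held 25 measured genes, 8 of them CEACAM genes. The 17 others had a median of 0.05, and 1 passed 1.4-fold, *RABAC1* (0.76), which encodes a membrane trafficking protein. It was singled out after its value was seen, and 1.51% of all named genes were higher and 1.67% lower past 1.4-fold. *CXCL17* was the lowest of them, at -0.44.

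**Figure D3:**
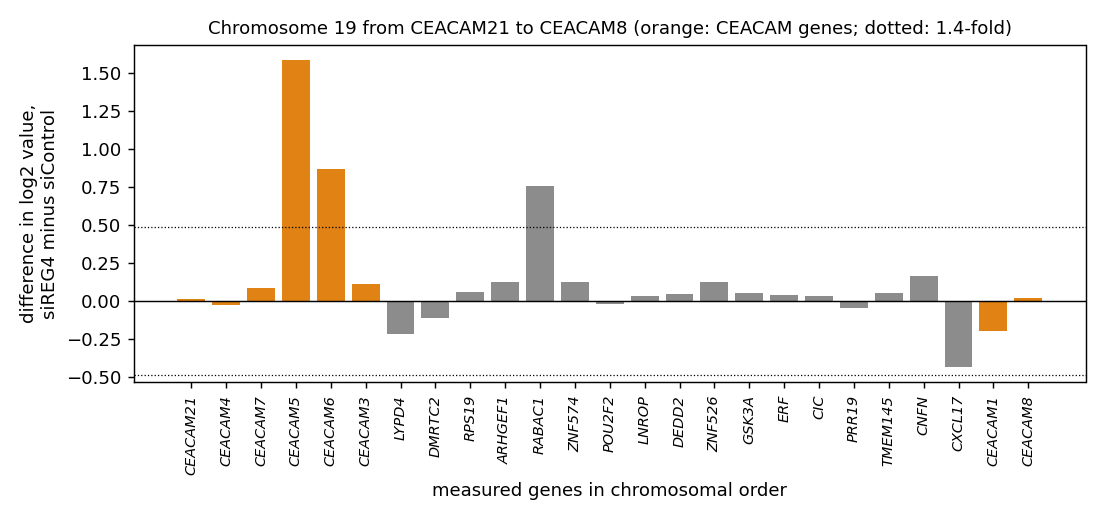
Difference in log2 value, siREG4 minus siControl (y axis), of 25 measured genes in their order on chromosome 19 (x axis), with CEACAM genes in orange and dotted lines at 1.4-fold. *CEACAM5*, *CEACAM6* and *RABAC1* are the 3 bars past the upper line, and the bars beside the CEACAM pair are short.

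The nearest measured genes of the other 4 were also mostly close to 0. Around *KRT20* lie other keratin genes, and the 6 measured neighbours ran from *KRT40* (-0.04) and *KRT10* (-0.01) to *KRT12* (0.01), with *KRT23* and *KRT39* listed at 0. Next to *NOX1*, *SYTL4* was at 0.07 and *TRMT2B* at -0.29, and *TSPAN6* was at -0.32. *ANKS4B* lay between *ZP2* (-0.02) and *ABCA15P* (-0.06). Around *DPP4*, *TANK* was at -0.46, *GCG* at 0.03, *IFIH1* at -0.23 and *LY75-CD302*, a readthrough transcript, at -0.64. Between *DPP4* and *TANK* lie 13 other genes, and between *DPP4* and *LY75-CD302* 29. Among the 30 distinct neighbours outside the 6 genes themselves, *LY75-CD302* was the 1 past 1.4-fold, and the median was -0.01. Of all named genes 1.51% were higher and 1.67% lower past 1.4-fold, so nothing is read from this count.

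The upstream sequences of the CEACAM pair were alike, but not more so than that of *CEACAM7*. In a global alignment, 74.6% of the columns were identical between *CEACAM5* and *CEACAM6*, 80.5% between *CEACAM5* and *CEACAM7*, and 79.9% between *CEACAM6* and *CEACAM7*. For *CEACAM1*, *CEACAM3*, *CEACAM4* and *CEACAM8* against *CEACAM5* the share ran from 57.0% to 66.2%. It was 49.8% for *CEACAM21* and 44.3% for *CEACAM20*, and ran from 43.4% to 48.8% for *KRT20*, *ANKS4B*, *DPP4* and *NOX1*. *CEACAM5*, *CEACAM6* and *CEACAM7* differed by 1.58, 0.87 and 0.08, and the part of this window in those differences was not tested.

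An E-box was found in *CEACAM5*, starting 46 bases before the gene start, and in *CEACAM6*, 45 bases before it. No match was found in this window of *CEACAM1*, *CEACAM3*, *CEACAM4*, *CEACAM7*, *CEACAM8*, *CEACAM20* or *CEACAM21*. Of all 35116 promoter windows, 6.34% held this motif, which the factor USF and its relatives bind. *DPP4*, which was lower in the siREG4 array, held it too, 215 bases before its start. The stretch around the match in *CEACAM5* is shown with the bases aligned to it in *CEACAM6*, *CEACAM7* and *CEACAM1*, and the E-box is in capitals.
CEACAM5: cacccatgaccCACGTGatgct
CEACAM6: cacccatgaccCACGTGaccct
CEACAM7: cacccctggaccatgtgatctt
CEACAM1: ccccagcacacatgatca
Of the 6 bases of the E-box, 5 were identical in *CEACAM7* and in *CEACAM1*, 3 in *CEACAM4*, 1 in *CEACAM3* and 0 in *CEACAM8*. A match is a description of the letters, and the motifs were chosen after the sequences and differences were seen.

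In the *NOX1* window printed above, 3 GATA matches began 137, 101 and 7 bases before the start, with a CDX match at 162. At least 1 GATA match was found in 22.3% of all windows, and 2 or more in 4.96%. *KRT20* held 1 GATA match, 195 bases before the start, and 2 CDX matches, at 235 and 29, where 22.5% of all windows held a CDX match and 6.53% held 2 or more. *CEACAM5* held 1 CDX match and *CEACAM6* a TATA element, 139 bases before the start, which 10.7% of windows held. *ANKS4B* held none of the 4 motifs. Of the factors with these names, *CDX2* was at -0.26, *CDX1* at -0.01 and *GATA6* at 0.07, and *GATA4* and *GATA5* were listed at 0.

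*CEACAM5* and *CEACAM6* were then set beside other absorptive genes. In 4 lists of brush border structure, brush border hydrolases, colonocyte surface and transport, and small intestinal absorption, 81 genes other than CEACAM genes were measured. Their median was 0.01, and 0 of them lay above *CEACAM6*, as only 0.277% of all named genes did, so nothing is read from this count. *NDRG1*, a stress-responsive differentiation gene at 0.81, came nearest, 0.05 below *CEACAM6* and 0.77 below *CEACAM5*.

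The colonocyte list was chosen with earlier results of these data known, so its shares are a description. It had 6 genes higher and 1 lower past 1.4-fold among 30 measured (67 listed), with a median of -0.02. Without the CEACAM pair and *KRT20*, 3 of 27 were higher (11.1%) and 1 was lower (3.70%), where 1.51% and 1.67% of all named genes were, and the median was -0.03. The 3 were *NDRG1*, *TSPAN1* (0.69), a tetraspanin, and *AQP3* (0.62), a channel for water and glycerol. *CA12*, a membrane carbonic anhydrase, was the 1 lower gene (-0.67). *HSD11B2*, which inactivates cortisol, was at -0.41, and *HPGD*, which degrades prostaglandins, at -0.36.

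Some further genes of the list, named for their known roles in the colon surface, lay nearer to 0. The carbonic anhydrase genes *CA1*, *CA2* and *CA4* were at 0.04, -0.14 and -0.13, the water channel gene *AQP8* at 0.04, and *CLCA4* at 0.04. *GUCA2A* and *GUCA2B*, which encode guanylin and uroguanylin, were at -0.15 and 0.28. *GPA33*, a surface antigen of the colon epithelium, was listed at 0. Because no levels are kept, a silent gene and an expressed gene that did not differ cannot be told apart here, and the colonic identity of the cells could not be checked on their markers.

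**Figure D4:**
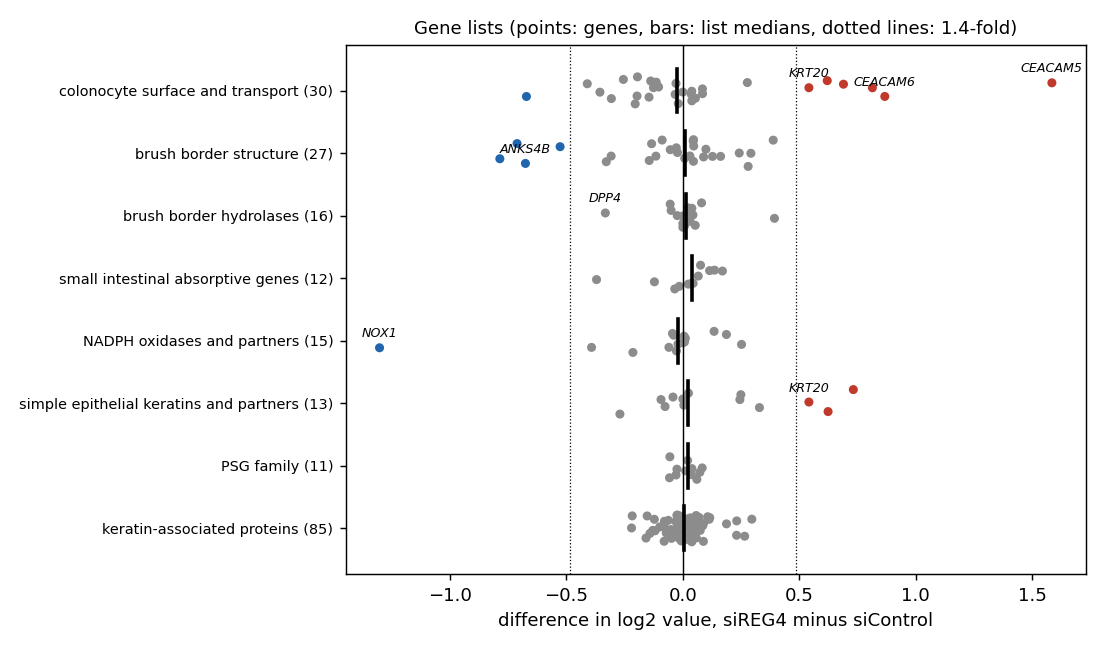
Difference in log2 value, siREG4 minus siControl (x axis), of the genes of 8 lists (rows, measured genes in parentheses), with 1 point per gene (vertical spread within a row has no meaning), black bars at list medians and dotted lines at 1.4-fold. *CEACAM5* and *NOX1* lie farthest out, and all 8 medians lie close to 0.

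Like *ANKS4B*, each brush border structural gene past 1.4-fold was lower in the siREG4 array. This list was also chosen with earlier results of these data known, so its shares are a description. Of 27 measured (37 listed), 4 were lower past 1.4-fold and 0 were higher. Without *ANKS4B*, 3 of 26 were lower (11.5%, against 1.67% of all named genes), whereas the median was 0.02. The 3 were *PDZK1IP1* (-0.79), which encodes a small membrane protein that binds the apical scaffold PDZK1, *EPS8L3* (-0.71), a relative of the actin regulator EPS8, and *PLS1* (-0.53), which encodes the plastin that bundles microvillar actin.

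Of the partners of ANKS4B in the complex between microvilli, 4 were measured, and each differed by less than *ANKS4B*. The scaffold gene *USH1C* was not analysed here. *CALML4*, the light chain of the complex's myosin, was at -0.33, *MYO7B*, that myosin, at -0.02, and the protocadherin genes *CDHR2* and *CDHR5* at 0.16 and 0.09. *VIL1*, which encodes villin, was at -0.05, and *EZR*, which encodes the membrane linker ezrin, at 0.10. The highest were the class I myosin genes *MYO1D* (0.39) and *MYO1E* (0.29) and *BAIAP2L1* (0.28), a membrane-bending actin regulator.

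**Figure D5:**
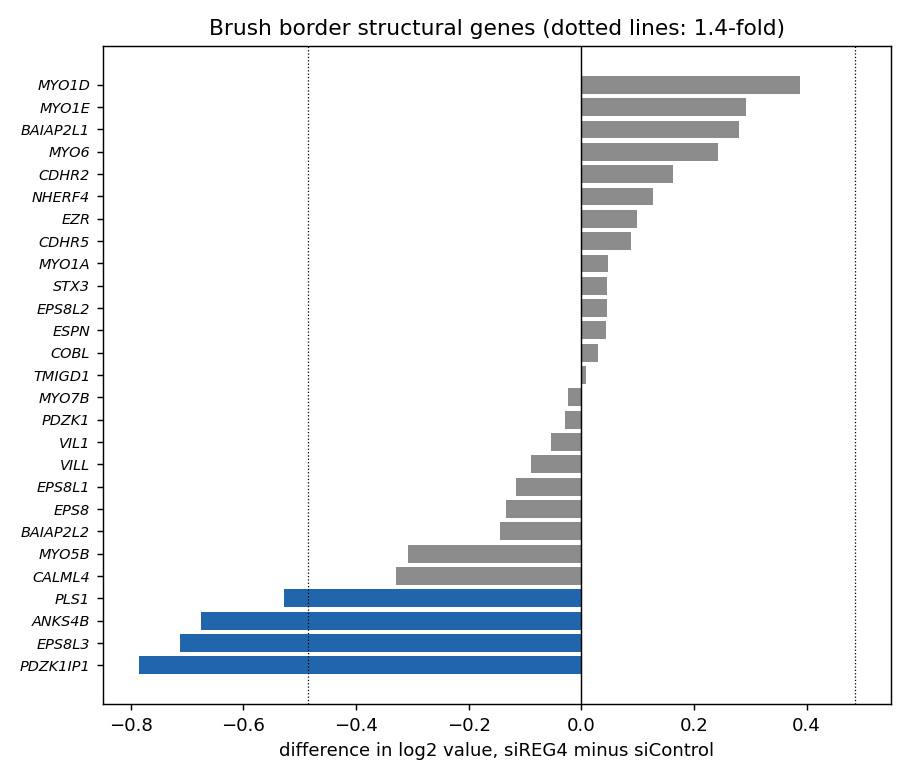
Difference in log2 value, siREG4 minus siControl (x axis), of the 27 measured brush border structural genes, with 1 bar per gene and dotted lines at 1.4-fold. *PDZK1IP1*, *EPS8L3*, *ANKS4B* and *PLS1* lie past the lower line and none past the upper.

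*DPP4* was the lowest of 16 measured brush border hydrolases (30 listed). The other 15 ran from -0.05 to 0.39 with a median of 0.02. Of these 15, 14 lay within 0.1 of 0, where 61.9% of all named genes did. *ANPEP*, which encodes aminopeptidase N, was at 0.03 and *LCT*, which encodes lactase, at -0.05, while the sucrase-isomaltase gene *SI* was listed at 0. *ST14*, which encodes the membrane protease matriptase, was the highest (0.39). Among genes of other dipeptidyl peptidases, *DPP9* (0.32) and *DPP3* (0.29) were higher without passing 1.4-fold, *DPP8* was at -0.02 and *DPP7* at 0.04. *ADA*, whose product adenosine deaminase binds DPP4, was at 0.12. Absorptive genes of the small intestine had 0 of 12 past 1.4-fold (median 0.04), from *HEPH* (-0.37), an iron oxidase gene, to the apolipoprotein genes *APOB* (0.14) and *APOA1* (0.17). As only 1.51% of all named genes were higher and 1.67% lower, nothing is read from this count.

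*NOX1*, chosen on this difference, was the only gene past 1.4-fold among 15 measured genes of NADPH oxidases and their partners (26 listed). Of all named genes 1.51% were higher and 1.67% lower, so nothing is read from this count. *NOXO1*, the organizer subunit that NOX1 needs, was at -0.39, and *NOXA1*, its activator subunit, at 0.19. *DUOX2* and *DUOX1*, the peroxide-producing oxidases of the mucosa, were at -0.03 and -0.04, *DUOXA2*, the maturation factor of DUOX2, at 0.01, and *NOX4* at 0.01. *CYBC1*, a chaperone of the phagocyte oxidase, was the highest (0.25).

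Other simple epithelial keratins lay on both sides of 0. *KRT8* and *KRT18*, the main pair of such cells, were at -0.08 and 0.00, *KRT19* at 0.24 and *KRT7* at -0.04. The list of keratins and partners was likewise chosen with earlier results of these data known, so its shares are a description. Of its 13 measured genes, 3 were higher past 1.4-fold and 0 lower. Without *KRT20*, 2 of 12 were higher (16.7%, against 1.51% of all named genes), *KRT80* (0.73) and *DSP* (0.62), the desmoplakin gene, and the median was 0.01.

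Markers of other cells and states were read beside these genes, and their part in the differences was not tested. Past 1.4-fold, 1.51% of all named genes were higher and 1.67% lower, and with lists this small nothing is read from the counts. Enteroendocrine markers had 0 of 17 past 1.4-fold and fibroblast and endothelial markers 0 of 8, with medians of 0.02 and -0.02. Of 10 immune markers, 1 was lower, *CD68* (-0.75), a lysosomal protein gene. Of 17 goblet markers, 2 were higher, *SYTL2* (0.76), which encodes a vesicle docking protein, and *AGR2* (0.57), while *TFF3* was at 0.06. The lowest goblet markers were *AGR3* (-0.40), *KLK1* (-0.28) and *SPDEF* (-0.17), with 10 of the list above 0 and 6 below. Of 17 stem cell markers, *AXIN2* (0.59) and *RNF43* (0.58) were higher and *CDCA7* (-0.80) and *CD44* (-0.66) were lower. None of 22 measured intestinal transcription factors passed 1.4-fold (0 genes), with *MYB* (-0.47), *EHF* (-0.40) and *PPARA* (-0.31) lowest and *FOXA1* (0.43), *SOX9* (0.20) and *FOXA2* (0.18) highest.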

How the data were processed

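Total RNA of transfected HT29 cells was prepared with the GeneChip WT PLUS Reagent Kit and run on Affymetrix Human Gene 2.0 ST arrays, which were evaluated in GeneSpring. The authors deposited log2 values for 44629 probe sets, centred per probe set, so that the columns of the 2 arrays sum to 0 within 1e-06. The log base was taken as 2. Background correction, summarization and normalization were done by methods not given in the sources used here.

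A platform annotation named 15835 probe sets with 1 gene symbol, and several probe sets of a gene were averaged. Differences were siREG4 minus siControl, counted past 1.4-fold in both directions. The number of arrays, 1 per group, limits the precision, and no p-value was computed. The members and lists were chosen with earlier results of these data known. Named were the 6 genes, *REG4* and *GATA6*, all CEACAM genes, 3 measured neighbours on each side, genes next in rank, and list genes past 1.4-fold or among the 3 lowest and highest; from longer sets only some were printed. Others were named for their known roles. Promoter windows came from RefSeq (GRCh38.p14), with all 6 genes matched, and were aligned globally (match 1, mismatch -1, gap opening -2, extension -0.5). Counting was tested on simulated data. Alternatives were quantile normalization, median centring, other probe set rules, a 2-fold threshold, other gene sets and means. A comparison of CEACAM proteins was not run. Python 3.11.15, pandas 2.3.3, numpy 2.4.6, Biopython 1.88 and matplotlib 3.10.9 were used.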

Additional observations from a re-analysis of the deposited data

How the results depend on the processing

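No paired analysis was possible because each group had 1 array. The differences of the 6 genes could change under quantile normalization alone, since each has 1 probe set and both arrays already had a median of 0. Under it they kept their direction, and the largest move was that of *NOX1*, to -1.42. Past 2-fold, 26 genes were higher and 13 lower in place of 224 and 248, and over all probe sets, named or not, 466 were higher and 491 lower. Past 2-fold the colonocyte list kept 1 higher gene and 0 lower, and the brush border structure list 0 lower. Among genes that differed by 0.1 or more, which selects genes by the difference itself, the median was -0.13 in both of these lists. With CEACAM genes left out of the lists, *CEACAM5* then lay 1.72 above the median of either, and *CEACAM6* 1.0 above that of brush border structure and 1.01 above that of the colonocyte list. The mean of the colonocyte list was 0.081, on the other side of 0 from its median, and without the CEACAM pair and *KRT20* it was -0.02. Across all results, 33 values under an alternative moved by more than the SD of the *KRTAP* genes or by over 1.5 times. A reversal was looked for only in differences past 1.4-fold, and 0 were found. List medians and counts could not be called reversed by this rule, and some medians changed sign. The members' ranks among protein-coding genes alone stayed within 1.5 times of those given. The deposited values keep no signal, so dim probe sets could not be left out.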

Other observations

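CEACAM5 and CEACAM6 reach the surface on a GPI anchor, and other genes of that class were compared. Of 32 measured genes of GPI-anchored epithelial proteins, the CEACAM pair were the 2 higher past 1.4-fold and 0 were lower. The pair was chosen on this difference, and 1.51% of all named genes were higher and 1.67% lower, so nothing is read from this count. The other 30 had a median of 0.01 and ran from *EFNA5* (-0.47), an ephrin gene, through the prion protein gene *PRNP* (-0.24) and *BST2* (-0.16), to *TFPI* (0.29), a coagulation inhibitor, and *EFNA1* (0.33). Of 29 listed genes of anchor synthesis and remodelling 6 were measured. *MPPE1*, which remodels the anchor in the endoplasmic reticulum, was lower past 1.4-fold (-0.58), *PGAP3* was at -0.26, *PGAP1* at -0.09 and the transamidase subunit gene *GPAA1* at -0.07, and *PGAP2* (0.12) and *DPM3* (0.17) were the highest.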
